A study of Schizosaccharomyces pombe with 4 samples.

Results

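This account covers 323 of 4538 open reading frames (ORFs; 7.12%) that carried long read intervals on their own strand in libraries of the RNA-binding protein Seb1. An ORF was taken where at least 3 distinct intervals (chromosome, start, end and strand) of 35 nt or more lay on its coding strand over both Seb1-HTP libraries, with at least 100 nt from the lowest start to the highest end. Ribosomal protein genes, RRT15 and YLR162W were left out, as were records that also named an rDNA, tRNA, snR or LSR1 feature. The 4538 ORFs are those named by a record of any library after these exclusions. The members were chosen by measured values, the number and reach of long own-strand intervals in the Seb1-HTP libraries, so those intervals, and every value that includes them, are a description.

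Cross-linking and cDNA analysis (CRAC) uses UV light to attach a protein to the RNA it touches, purifies the protein by its tag, and sequences the RNA fragments that stay attached. Seb1 is the Schizosaccharomyces pombe relative of the budding yeast protein Nrd1. Such proteins bind RNA polymerase II and the transcript leaving it, and Seb1 takes part in 3′ end formation of mRNAs. In CRAC of a protein on nascent mRNA, fragments lie on the coding strand, while fragments of the opposite strand belong to antisense RNA or to other placements of a read.

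The libraries were 2 of the strain with Seb1-HTP (Seb1-HTP::KAN, Seb1 fused to a tag for affinity purification) and 2 of its parent without a tag, which show what the purification recovers on its own. Both strains were of mating type h+ and carried ade6-M216 and leu1-32 together with ura4-delta_18 and his3delta_1. Cultures grew exponentially in YES medium at 30 °C and received UV for 3 min, and each strain had 2 biological replicates by the series design. The records lie on chromosomes of Saccharomyces cerevisiae and bear its gene names, although the organism label is S. pombe and the submitters' processing notes name the S. pombe build ASM294v2. Each gene name and position below is therefore that of an S. cerevisiae feature as the files give it. The sources used here do not state the release of that genome.

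Reads of records naming at least 1 feature ("named reads") numbered 268030 and 231656 in Seb1-HTP libraries 1 and 2, against 4579 and 45339 in controls 1 and 2. Collapsed to distinct named intervals, these were 15741 and 37912 with Seb1-HTP and 967 and 3709 in untagged libraries. Reads naming rDNA made up 83.4% and 77.0% of named reads with Seb1-HTP and 89.8% and 95.1% in untagged libraries. Seb1-HTP library 2 stood apart from the other 3: each of the 323 ORFs had a long own-strand interval there, and 61 had one in Seb1-HTP library 1. Applied without library 2, the rule found 2 ORFs, and without library 1 it found 302.

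Most members were thinly covered. The median was 4 distinct long own-strand intervals per ORF, 119 members had exactly 3, and 44 had 10 or more. The distance from lowest start to highest end had a median of 765 nt and ran from 101 nt to the 10603 nt of MDN1, the giant ATPase of ribosome assembly. Just outside the rule lay 209 ORFs with 2 such intervals and at least 100 nt from lowest start to highest end (ABP1, ACO1 and ADE3 by alphabet), and 66 ORFs with at least 3 intervals within at most 99 nt. Just inside lay ORFs with 3 intervals, such as ABF2, ADD66 and ADE12. Of the members, 47 have no standard gene name and 25 have a suffixed ORF name.

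The member with most long own-strand intervals was a gene of central carbon metabolism. PGK1, which encodes phosphoglycerate kinase (YCR012W, chromosome III, 137740 to 139164, plus strand), had 1 and 45 long own-strand intervals in Seb1-HTP libraries 1 and 2, and 2 and 4 in untagged libraries. Positions given for a gene here run from the lowest start to the highest end of its long own-strand Seb1-HTP intervals and are not gene bounds. Per 1000 named intervals this came to 0.0635 and 1.19 with Seb1-HTP, against 2.07 and 1.08 in untagged libraries. Both untagged libraries lay above Seb1-HTP library 1, control 1 also above library 2 and control 2 below it, so the groups overlapped. TDH3, which encodes glyceraldehyde-3-phosphate dehydrogenase (chromosome VII, 882703 to 883820, minus strand), had 0 and 24 intervals with Seb1-HTP, against 1 and 5 in untagged libraries. TDH3 and the histidine biosynthesis gene HIS4 were the only members whose level per named interval was higher in both controls than in both Seb1-HTP libraries. For HIS4 this rests on 0 and 5 intervals with Seb1-HTP and 2 and 1 in untagged libraries.

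ENO2, one of the enolase genes, had 2 and 24 intervals with Seb1-HTP and 1 and 2 in untagged libraries. PDC1, which encodes pyruvate decarboxylase of the fermentation pathway, had 1 and 28 with Seb1-HTP and 0 and 3 in untagged libraries. Both genes had intervals in at least 1 untagged library at a level per named interval near that of Seb1-HTP library 2. Of the 17 listed genes of glycolysis and fermentation, 15 were members, and ADH1 and PFK1 were not. The 15 together gave 0.699 and 5.17 long own-strand intervals per 1000 named intervals with Seb1-HTP, against 4.14 and 4.58 in untagged libraries. Opposite-strand long intervals of the 15 numbered 0 and 3 with Seb1-HTP and 0 in either control.

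Of the 13 listed translation factors, 8 were members, among them TEF1 and TEF2, which followed PGK1 in the number of intervals. TEF1 and TEF2 both encode elongation factor eEF1A, which brings aminoacyl-tRNA to the ribosome. TEF1 (YPR080W, chromosome XVI, 700614 to 701973, plus strand) had 1 and 44 long own-strand intervals with Seb1-HTP and 0 and 3 in untagged libraries. TEF2 (YBR118W, chromosome II, 477597 to 478994, plus strand) had 1 and 39 with Seb1-HTP and 0 in both controls. The intervals of these near-identical genes cannot be taken as separate evidence: at the offset that aligned them best, 13 TEF1 intervals fell on TEF2 intervals base for base, against 3 at the next best offset. EFT1 and EFT2, the genes of elongation factor eEF2, had 10 and 7 intervals in Seb1-HTP library 2, 1 each in control 2, and 3 coinciding intervals. The listed genes CAM1, EFB1, PAB1, SUI1 and TIF2 did not meet the rule.

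Chaperones, the proteins that help others fold, supplied 13 of 16 listed genes. HSP82, which encodes the inducible Hsp90 (YPL240C, chromosome XVI, 97871 to 98633, minus strand), had 1 and 37 long own-strand intervals with Seb1-HTP and 0 and 1 in untagged libraries. Its relative HSC82 had 0 and 22 with Seb1-HTP and 2 in each control. Among the cytosolic Hsp70 genes, SSA1 had 2 and 36 with Seb1-HTP, SSA2 had 0 and 33, and SSA4 had 1 and 22, with 0 in both controls for each. SSA2 had 0.870 intervals per 1000 named intervals in Seb1-HTP library 2, while a count of 0 allows up to 3 intervals, or 3.10 and 0.809 per 1000, in controls 1 and 2. The 13 chaperone genes together gave 0.508 and 5.51 intervals per 1000 named intervals with Seb1-HTP, against 2.07 and 1.89 in untagged libraries. For this list, as for glycolysis, the controls lay between the Seb1-HTP libraries.

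The other lists held fewer members. Histone genes supplied 5 of 9 (25 intervals in Seb1-HTP library 2), cytoskeleton genes 3 of 7 (ACT1, TUB2 and TUB3), transporters and ATPases 6 of 12, and genes of amino acid, one-carbon and nucleotide metabolism 4 of 14. Of 8 cell wall genes, CCW12 and PIR1 were members, and CCW12, which encodes a wall mannoprotein, had 0 and 22 intervals with Seb1-HTP, against 0 and 4 in untagged libraries. Of 13 genes for 3′ end processing and termination, only NRD1 was a member, with 0 and 6 intervals with Seb1-HTP and 0 and 1 in untagged libraries. NRD1 is the S. cerevisiae gene whose product gave the Nrd1-like family its name. Over all lists, 62 of 126 listed genes (49.2%) were members, against 7.12% of all ORFs named in any library under the same exclusions. The lists and the members were drawn up with results of these libraries known, so this share describes the choice.

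**Figure D1:**
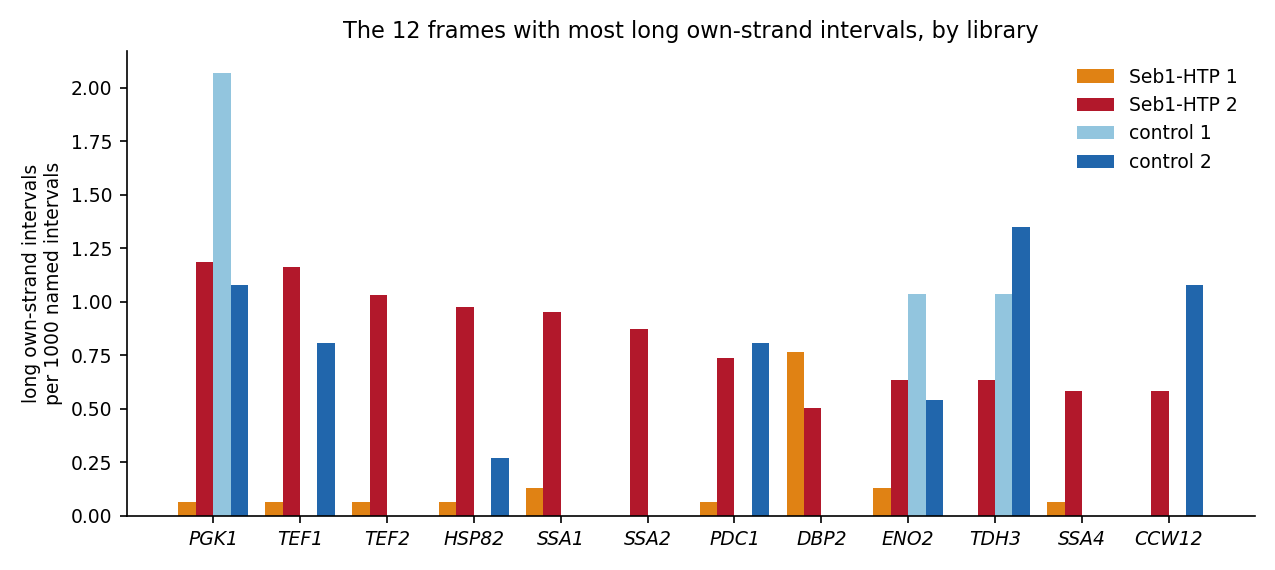
Distinct long own-strand intervals per 1000 named distinct intervals (vertical axis) for the 12 members with most such intervals (horizontal axis), 1 bar per library. Seb1-HTP library 2 gave bars for every gene, and at least 1 control stood above it for PGK1, PDC1, ENO2, TDH3 and CCW12.

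The 12 leading members together had 1.4 and 9.84 long own-strand intervals per 1000 named intervals with Seb1-HTP, against 4.14 and 5.93 in untagged libraries, as the bars by library show gene by gene. Across all 323 members, long own-strand intervals numbered 104 and 1930 with Seb1-HTP, against 17 and 76 in untagged libraries. That was 0.661% and 5.09% of named intervals with Seb1-HTP (2.88 ± 3.13, mean ± SD, n = 2) and 1.76% and 2.05% in untagged libraries (1.90 ± 0.206, n = 2). As reads, the shares were 0.0839% and 1.03% of named reads with Seb1-HTP and 0.611% and 0.185% in untagged libraries. On either scale both controls lay between the Seb1-HTP libraries. The Seb1-HTP libraries differed more from each other than the strain means did.

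Gene by gene, own-strand reads of any length were set against the controls with edgeR's quasi-likelihood test over the 367 ORFs with at least 10 reads in the 4 libraries. These reads include those of the long Seb1-HTP intervals that chose the members, so the fit is no independent test of them and their rows are a description. No ORF was called higher with Seb1-HTP (0% of those tested) and none lower (0%) at an adjusted p of 0.05, and the smallest adjusted p was 0.621. None had an unadjusted p under 0.05 in edgeR, and DESeq2 called 0 with 10 at an unadjusted p under 0.05. The fit held 127 of the members, of which 79 had 0 reads in both controls and so passed the read minimum through Seb1-HTP alone, and the remaining 196 were below it. PGK1 had 2 and 68 own-strand reads with Seb1-HTP, against 2 and 9 in untagged libraries, with a fitted log2 fold change of -1.0. TEF1 had 1 and 92 with Seb1-HTP and 0 and 5 in untagged libraries (fitted log2 fold change 1.41). On data simulated with the spread of these libraries, the test recovered 0 of 71 ORFs raised 16-fold and 0 of 38 lowered 16-fold, so a difference of that size was not detectable here.

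The controls, which the rule did not use, held long own-strand intervals of the same ORFs. In control 1, 12 of the 47 ORFs with such an interval were members (25.5%, 95% Wilson interval 15.3 to 39.5), and in control 2, 51 of 157 were (32.5%, 25.7 to 40.2). Members were 7.12% of the ORFs named in any library, a wider set than ORFs with a long own-strand interval. Of the 1727 ORFs with such an interval in the Seb1-HTP libraries, 323 were members. Seen from the other side, 57 of the 323 members (17.6%) had a long own-strand interval in at least 1 control, and 6 had one in both. Besides PGK1, CCW12, TDH3, HSC82 and TEF1, HAC1, which encodes the transcription factor of the unfolded protein response, was among those with most control intervals. It had 0 and 13 long own-strand intervals with Seb1-HTP, against 0 and 4 in untagged libraries. By position, 14 of the 17 member intervals of control 1 (82.4%) and 53 of the 76 of control 2 (69.7%) overlapped an interval of Seb1-HTP library 2. For Seb1-HTP library 1 the overlap was 61 of 104 (58.7%). Between the controls, 3 of the 17 intervals of control 1 and 4 of the 76 of control 2 overlapped. Seb1-HTP library 2 supplied most of the intervals that chose the members. In members with 10 or more intervals, Seb1-HTP intervals covered a median of 46.4% of the span. The overlap to be had from such coverage alone was not computed. Exact matches in both ends were rare, with 8 intervals common to both Seb1-HTP libraries and 1 common to Seb1-HTP library 2 and control 2.

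**Figure D2:**
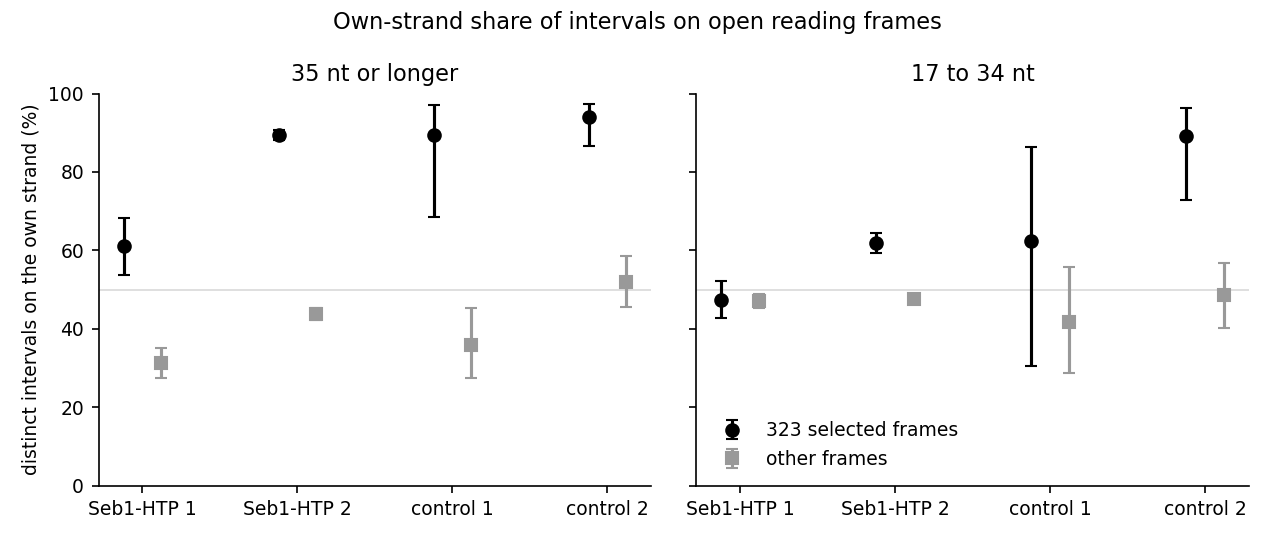
Share of distinct intervals on the own strand of an ORF (vertical axis, %) in each library (horizontal axis), for intervals of 35 nt or longer (left) and of 17 to 34 nt (right). Black circles are the 323 members and grey squares all other ORFs, with 95% Wilson intervals as bars. An interval naming a member and another ORF counts in both. The members lie above the other ORFs in both controls at long lengths, and in control 2 and Seb1-HTP library 2 at short lengths.

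Strand was examined where the rule had not set it. In the controls, 17 of 19 long member intervals of control 1 (89.5%, 95% Wilson interval 68.6 to 97.1) and 77 of 82 of control 2 (93.9%, 86.5 to 97.4) lay on the own strand, an interval naming several members being counted for each. The other ORFs had 35.8% of 106 and 52.0% of 221 on the own strand in the same libraries. An interval naming a member and an overlapping ORF was counted for both. If sense to the member, it could thus count as opposite-strand for the other ORF. Where a record had to name the ORF alone, the mean gap between members and other ORFs over both controls was 32.1 percentage points, against 47.7 with all records. Within Seb1-HTP libraries 1 and 2 the long own-strand shares of members, which the rule used, were 61.2% and 89.5%, beside 31.2% and 43.7% for the other ORFs. The helicase gene DBP2, described below, held 43 of the 66 opposite-strand intervals of library 1, and without it the shares were 92 of 115 (80%) and 1936 of 2067 (93.7%). The long member intervals of the untagged strain were thus mostly sense, as the plot of own-strand shares shows.

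Short intervals of 17 to 34 nt gave a smaller gap with Seb1-HTP and in control 1, and a like gap in control 2. On the members, 47.5% of 413 and 61.9% of 1398 short intervals lay on the own strand in Seb1-HTP libraries 1 and 2, against 62.5% of 8 and 89.3% of 28 in untagged libraries. In the other ORFs the shares were 47.2% and 47.6% with Seb1-HTP and 41.7% and 48.5% in untagged libraries. The members of Seb1-HTP library 1 therefore lay within counting error of the other ORFs at these lengths, while those of library 2 lay above them by more than that. The members were chosen mostly through own-strand intervals of library 2. DBP2 held 39 of the 217 and 60 of the 533 short opposite-strand intervals of Seb1-HTP libraries 1 and 2. The short shares without it were not computed. The Seb1-HTP mean was 21.2 percentage points below the control mean (exact two-sided permutation p = 0.33, the smallest that 2 against 2 libraries allow). That difference had the opposite sign in intervals of 17 to 24 nt, at 13.1 points, which rests on only part of the 8 and 28 short control intervals.

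DBP2, an RNA helicase gene, was unlike the other leading members. It had 12 and 19 long own-strand intervals with Seb1-HTP and 0 in both controls, but 43 and 99 on the opposite strand, also with 0 in either control. It was 1 of 3 members, with HAP1 and YNL179C, that had more long opposite-strand than own-strand intervals with Seb1-HTP. Of its 28 distinct own-strand intervals, 75% started within 50 nt of each other, and the intervals covered 11.7% of the span, against 48.7% for PGK1 and 75.8% for HSP82. The opposite-strand intervals stood at the same places, as the interval maps show. Of the 323 members, 254 had no long opposite-strand interval with Seb1-HTP, and 17 had 3 or more. Many members had few intervals at all, with 119 at exactly 3 and 60 at exactly 4 on the own strand.

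**Figure D3:**
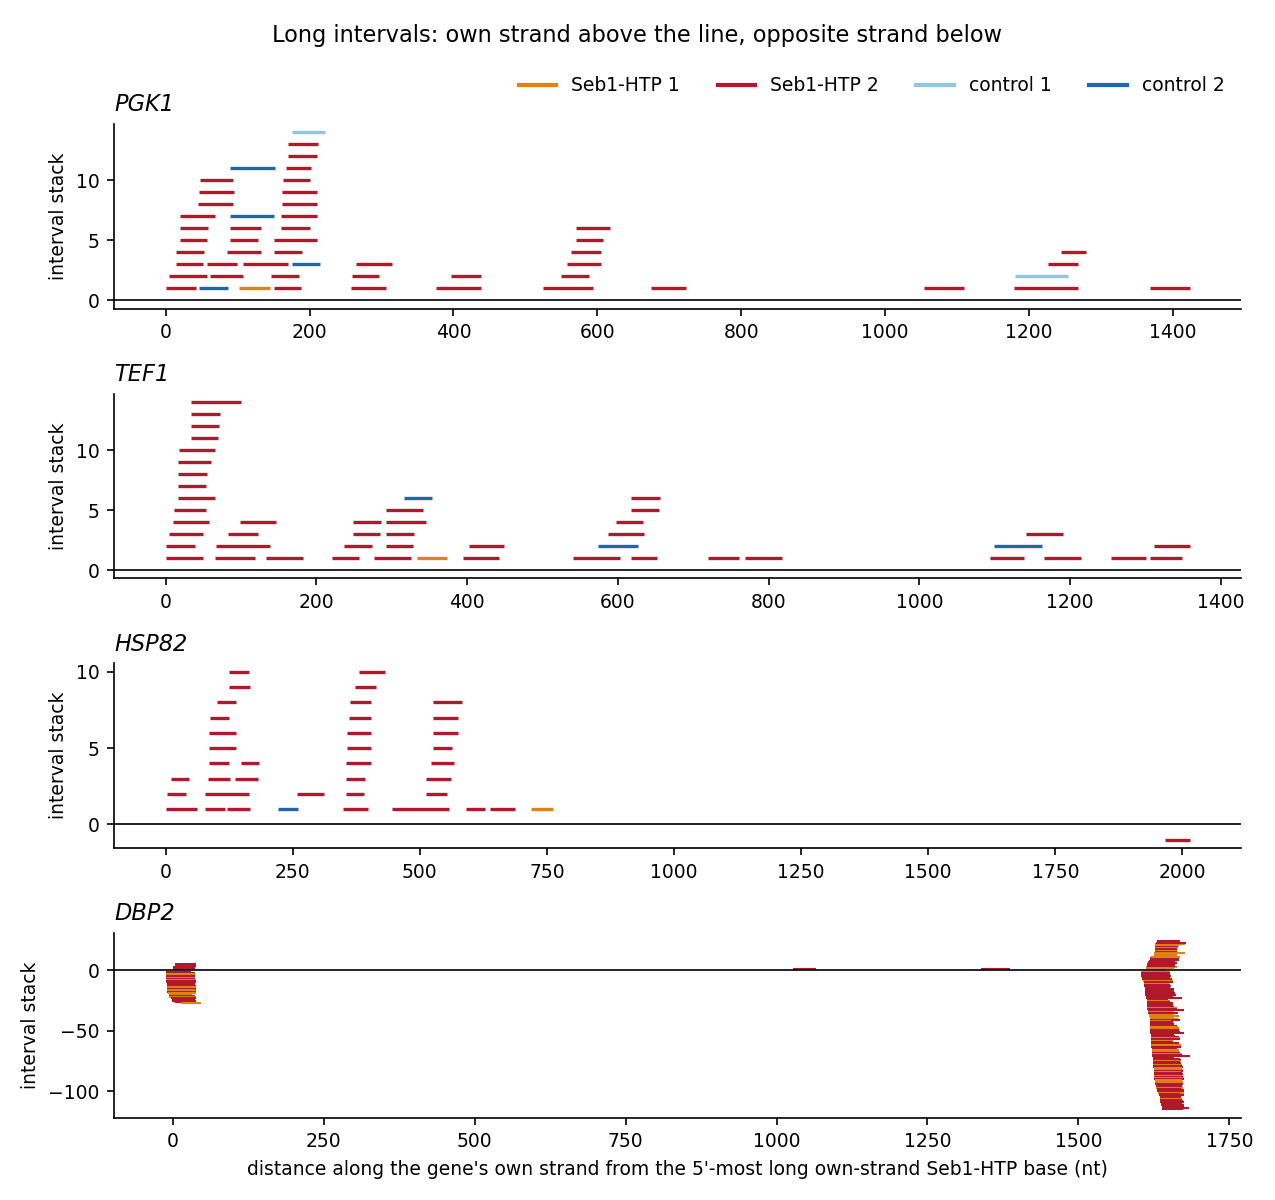
Long intervals of PGK1, TEF1, HSP82 and DBP2 by distance along the gene's own strand (horizontal axis, nt, from the 5′-most long own-strand Seb1-HTP base), stacked where they overlap (vertical axis, stack level). Own-strand intervals lie above the line and opposite-strand intervals below, coloured by library. PGK1, TEF1 and HSP82 are spread over several clusters, and DBP2 lies mostly in a pair of narrow piles that are deeper on the opposite strand.

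Ranked by the smaller of the counts in the Seb1-HTP libraries, DBP2 came highest. By the same measure LEU9, a gene of leucine biosynthesis, came next with 7 and 10 long own-strand intervals. RMI1, whose product works with the Sgs1 helicase and topoisomerase III, had 6 and 3. On the opposite strand, RMI1 had 3 and 5 long intervals with Seb1-HTP, and LEU9 had 1 and 2. DBP2, LEU9 and RMI1 all had 0 long own-strand intervals in both controls. Their highest level with Seb1-HTP was 0.762 per 1000 named intervals, for DBP2 in library 1. A count of 0 allows up to 3.10 and 0.809 in controls 1 and 2, so these zeros do not set the strains apart. Interval starts of the 3 genes were bunched, with 75%, 73.3% and 88.9% within 50 nt. Over all members the median was 50%, with 11 members at 80% or more. It was 31.2% for members with 10 or more intervals. TDA10 had 3 and 3 intervals, YKL183C-A had 3 and 7, and ALD4, which encodes a mitochondrial aldehyde dehydrogenase, had 2 and 3. Only 5 members had more than 3 intervals in Seb1-HTP library 1. These were DBP2, LEU9, RMI1, KRS1 and HEM3, the last pair being outside the naming rule and picked after their values were seen. KRS1, the lysyl-tRNA synthetase gene, had 78 reads on 5 intervals in library 1 and 1 read on 1 interval in library 2.

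Neighbouring or overlapping features were often named with the member. All 46 PGK1 intervals shared their record with another name, 45 with Unit35 and 30 with YCR013C. All 29 of PDC1 also named Unit253, and 26 of the 38 of SSA1 also named YAL004W. TEF2, HSP82, SSA2, SSA4 and DBP2 were named alone in every interval. Counting only records that name the ORF alone, 196 ORFs met the rule. In all, 25 pooled intervals named more than 1 member, most often the pair PHD1 and YKL044W with 8.

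The records list where a read differs from the genome it was placed on. Over the long own-strand intervals of members, 7.03 and 4.69 substitutions per 100 nt were listed in Seb1-HTP libraries 1 and 2, against 3.25 and 3.01 in untagged libraries. The last base at the 3′ end was substituted in 31.7% and 48.0% of intervals with Seb1-HTP and in 35.3% and 26.3% in untagged libraries, while the base before it was substituted in 8.65% and 8.13% with Seb1-HTP and 5.88% and 6.58% in untagged libraries. Per the labels, the adapters carry random bases next to the insert, and their part in this was not tested. With 5 nt taken off each end, the rates were 5.99 and 3.49 per 100 nt with Seb1-HTP, against 1.06 and 2.03 in untagged libraries. Intervals with no interior substitution made up 17.3% and 42.2% with Seb1-HTP (n = 104 and 1930) and 70.6% and 59.2% in untagged libraries (n = 17 and 76).

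**Figure D4:**
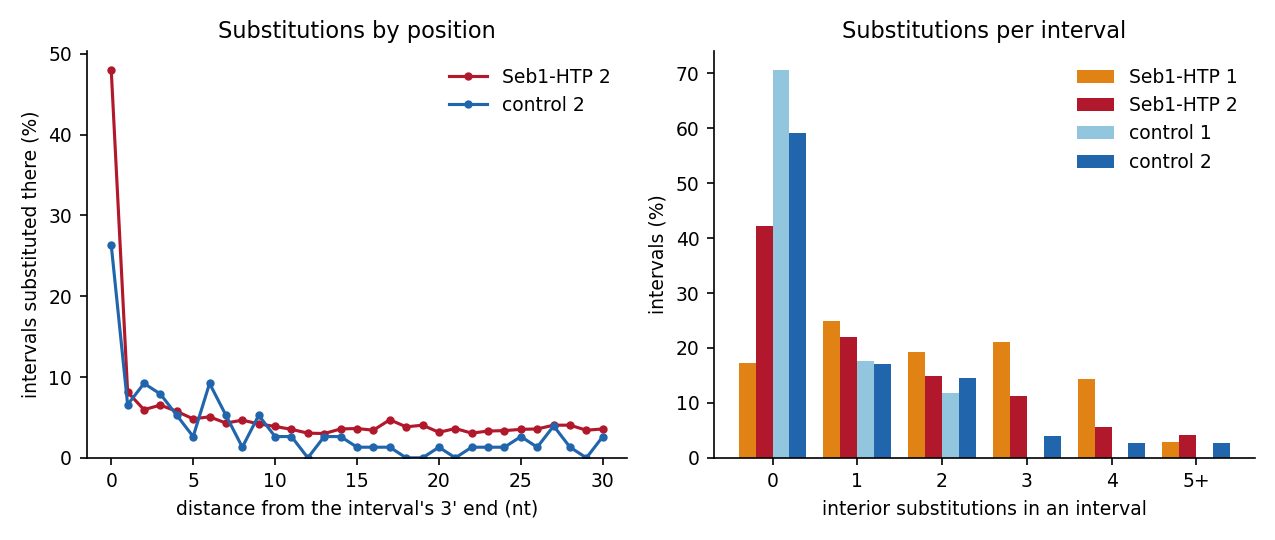
Left, share of long own-strand member intervals substituted at each distance from the 3′ end (nt), for Seb1-HTP library 2 and control 2. Right, share of intervals by the number of interior substitutions (5 nt off each end), for all 4 libraries. The last base was substituted in 48.0% of intervals of Seb1-HTP library 2 and 26.3% of control 2, and intervals with no interior substitution were most frequent in untagged libraries.

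Members did not stand alone in this. Other ORFs had no interior substitution in 23.0% and 39.3% of long own-strand intervals with Seb1-HTP and 59.5% and 63.6% in untagged libraries. In rDNA, 26.1% and 27.9% of long intervals with Seb1-HTP had none, and 25.2% and 31.1% in untagged libraries. On members, control intervals thus matched the genome they were placed on more closely than Seb1-HTP intervals did. In rDNA the share with none overlapped between the strains, while the interior rate did not, at 3.79 and 3.61 per 100 nt with Seb1-HTP, against 3.34 and 3.05 in untagged libraries. These differences of 2 against 2 libraries were not tested. On the opposite strand of members, 6.06% of 66 and 23.2% of 228 long Seb1-HTP intervals had no interior substitution, and without DBP2 it was 2 of 23 (8.70%) and 49 of 129 (38.0%).

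Within the Seb1-HTP intervals the members differed widely. The interior rate had a median of 3.19 per 100 nt, with quartiles of 1.81 and 4.41, and 14 members were at 0. Of the 44 members with at least 10 intervals, TEF1 (7.40), TEF2 (7.04), DBP2 (7.05) and KAR2 (7.48), the gene of the Hsp70 of the endoplasmic reticulum, exceeded 6 per 100 nt. PGK1 had 3.27 and HSP82 had 4.55. For TEF1, 8 of the 44 intervals of Seb1-HTP library 2 had no interior substitution. Its 3 intervals of control 2 had 0 substitutions over 128 interior nt, and the 4 of CCW12 also had 0. In control 2, ENO2 (2 intervals) and KAR2 (1 interval) had 0 as well. Not all genes shared this. PGK1 had 3.55 per 100 nt in 4 intervals of control 2, against 3.34 in Seb1-HTP library 2. TDH3 had 2.96 in 5 intervals of control 2, against 3.40 in that library. In control 1, PGK1 had 0 over 103 interior nt in 2 intervals, and TDH3 had 2.5 per 100 nt in 1. The lowest rate among the 44 members was 1.07, for ICY2, which falls outside the naming rule.

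The spacing of substitutions also differed. In TEF1, 46 of 81 distances between neighbouring interior substitutions were multiples of 3 nt (56.8%), in TEF2 39 of 74 (52.7%), and in KAR2 15 of 27 (55.6%). FBA1, the aldolase gene, had 6 of 11. Over the 26 members with at least 10 intervals and 10 distances the median was 30.8% and the lowest value 14.3%. DBP2, with a rate like that of TEF1, had 24.4% at such spacings, PGK1 had 16.1% and HSP82 had 19.5%. The rDNA value in Seb1-HTP library 2 was 26.1%. Overlapping intervals share positions, so these distances are not independent.

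**Figure D5:**
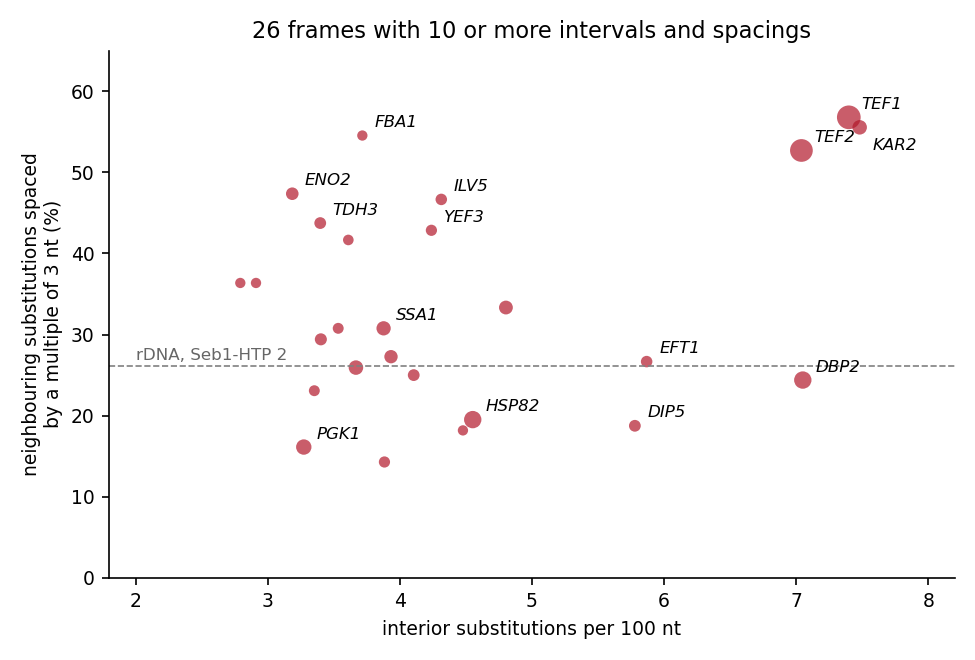
Interior substitutions per 100 nt (horizontal axis) against the share of distances between neighbouring interior substitutions that are multiples of 3 nt (vertical axis, %), for the 26 members with at least 10 intervals and 10 distances. Point area grows with the number of distances, and the dashed line is rDNA in Seb1-HTP library 2 at 26.1%. TEF1, TEF2 and KAR2 stand at the upper right, with DBP2 at a like rate near the dashed line.

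Positions substituted in most intervals over them were few. Those covered by at least 3 distinct intervals and substituted in 80% or more of them numbered 43 of 5046 over all members, in 18 genes. TEF2 had the highest number, 8 of 243, and TEF1 had 5 of 175. As a share of covered positions, some genes with fewer intervals stood higher, with 3 of 26 in TDA10, 2 of 25 each in the actin gene ACT1 and in EFT2, and 3 of 60 in TUB3, an alpha-tubulin gene. PGK1 had 0 of 236, HSP82 had 0 of 189 and DBP2 had 0 of 83. The repeat positions of TEF1 and TEF2 are not separate observations, since the genes share coinciding intervals.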

How the data were processed

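CRAC libraries of 2 Seb1-HTP and 2 untagged S. pombe cultures were analysed. The deposited files hold read counts per mapped interval with strand, overlapping feature names and substitutions, written by Counters 1.4.2 per the file headers. The submitters' processing notes name Novoalign 2.0.4 and ASM294v2. Records naming no feature were left out (of all reads, 2.12% and 4.90% with Seb1-HTP, 1.61% and 0.334% in untagged libraries). Adapters carry random bases, and the sources used here do not state whether PCR repeats were removed, so distinct intervals were counted, and intervals and floors cover counting error only. A repeated interval took the substitutions of its record with most reads.

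The members and gene lists were chosen with earlier results of these data known. Named genes are the 12 with most intervals, up to 8 present in both Seb1-HTP libraries, up to 6 with most own-strand intervals in controls, and list members. Own-strand read counts were tested with edgeR 4.0.16 (R 4.3.3) on totals of named reads with Benjamini-Hochberg adjustment, and DESeq2 1.42.0 as an alternative. Shares carry 95% Wilson intervals, and a count of 0 a limit of 3. On simulated data with dispersion 0.1 the edgeR test recovered 52 of 92 ORFs raised and 41 of 44 lowered 16-fold. Substitution spacing, repeat positions, control strand gaps and values without DBP2 were added after seeing the data. No sequences are given, since no S. cerevisiae genome was used here.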

Additional observations from a re-analysis of the deposited data

How the results depend on the processing

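The number of members depended on the rule: 371 with intervals of 30 nt or more, 207 at 40 nt, 532 with at least 2 intervals, 144 with at least 5, 389 with no minimum span, 297 with a span of 200 nt, 196 with records naming the ORF alone and 298 without suffixed names. Leaving out Seb1-HTP library 1 or 2 gave 302 or 2. The fewer members at stricter settings follow from the settings. No ORF was called by edgeR under TMM factors, totals without rDNA and tRNA, other filters, distinct intervals, either strand, single-name records or any library left out (0 to 0), nor by DESeq2, although unadjusted p under 0.05 was met by 77 ORFs with TMM factors and by 30 and 176 of those tested without Seb1-HTP library 2 and 1. The short own-strand difference (Seb1-HTP minus control) was -21.2 points, -29.6 at 25 to 34 nt, -6.60 with single-name records, 13.1 at 17 to 24 nt and between -34.6 and -7.83 with a library left out. The change of sign at 17 to 24 nt rests on part of the 8 and 28 short control intervals of members, and its cause was not tested. The member share of named intervals of any length and either strand, which includes the intervals that chose the members, differed by 3.64 points, Seb1-HTP minus control (0.813 to 6.46 with a library left out, 0.833 without rDNA and tRNA in the total). The pooled substitution rate of 4.78 per 100 nt was between 4.69 and 7.03 with a library left out and 3.59 without 5 nt at each end. The strand gap in the controls of 47.7 points was 32.1 with single-name records and between 41.9 and 53.6 with a control left out. The replicate numbers are only ordinals in the labels and the deviations of same-numbered libraries were hardly correlated (r = 0.08 over 367 ORFs). With the replicate block edgeR called 0 ORFs, with 131 at an unadjusted p under 0.05, and the paired differences averaged -21.2 and 3.64 points. Depth limits all statements on the controls, which hold 17 and 76 long own-strand member intervals.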
